A study of Drosophila melanogaster with 12 samples.

Results

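The 8 Drosophila melanogaster genes lcs (also named lacosta), whe, CG16826, CG34212, CG45080, CG13947, CG43680 and CG33109 had the largest swings between the group means of the data set, and they are described here as one set. They are 8 of 17617 genes in the deposited tables, all 8 were matched by symbol, and all 8 were among the 8399 genes that reached a value of 10 or more in 3 or more libraries and were tested. The swing of a gene was the difference between its highest and lowest group mean of log2 (value + 2). It ran from 6.82 for CG33109 to 8.01 for lcs within the set, and the next gene, lncRNA:CR34335, had 6.48. The median swing of all tested genes was 0.52. The values that chose the genes are the same values that are described below, so the differences of the 8 genes between groups carry no test.

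The samples were GFP-positive cells sorted from the midguts of mated adult females, and RNA was read from the 3′ ends of transcripts. All flies carried the esgtsGFP driver, which acts in the escargot-expressing progenitors of the midgut and, being temperature sensitive, was switched on by holding flies aged 3 to 4 days at 29 °C for 7 days. The control was this driver crossed to w1118, and the trxRNAi genotype was the driver crossed to UAS-trxRNAi (BDSC 33703), a single RNA interference line that targets trithorax (trx), a gene for a histone methyltransferase. For the last 48 h the flies were fed 5% sucrose or 3% dextran sulfate sodium (DSS), which damages the gut lining. This gave 4 groups of 3 libraries: control sucrose, control DSS, trxRNAi sucrose and trxRNAi DSS. The series title concerns Trithorax and the homeodomain factor Ptx1 in the choice of stem cells for the enteroendocrine fate. Whether replicates stem from separate flies or cultures is not in the labels, so standard errors and p-values measure the spread between these libraries, which may be technical.

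In the adult fly midgut, stem cells give rise to enteroblasts, which mature into absorptive enterocytes, and to enteroendocrine cells, which secrete peptide hormones. Stretches of the gut differ in their digestive enzymes, lysozymes and transcription factors. The annotation lists the 8 genes as protein coding, and most carry only a systematic name. No function is assigned to them here.

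Values are the deposited ones, which are read counts scaled by one factor per library, and a level is a value per gene that is not divided by transcript length. Values summed to between 5362337 and 6520981 in a library, with 10147 to 11213 genes above 0. Among the progenitor markers, 9 of 11 listed genes were tested, and their summed level ran from 16767 to 24229 in the control libraries and from 11914 to 18354 in the trxRNAi libraries. Escargot itself and 2 other progenitor markers were not analysed here. Enteroendocrine markers were also high: their summed level was 19324 to 29095 in the control libraries and 2618 to 7667 in the trxRNAi libraries, so the sorted cells held endocrine RNA beside progenitor RNA. Enterocyte markers summed to 3561 to 8172 over all 12 libraries. The hemocyte markers eater and He and the tracheal marker verm were at 0 in every library. In bulk samples, fewer cells of a type and less RNA per cell cannot be told apart.

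The level of trx itself was 1114, 1217 and 1313 in the control sucrose libraries and 668, 667 and 448 in the libraries labelled trxRNAi sucrose. The trxRNAi libraries were lower without overlap, by a log2 difference of -1.05 ± 0.19 (SE, limma, Benjamini-Hochberg adjusted p = 0.00356). Under DSS the level of trx was 841, 1041 and 652 in the control and 715, 758 and 808 in the libraries labelled trxRNAi. Those groups overlapped, and the log2 difference was -0.13 ± 0.19 (limma, adjusted p = 0.772). Each direction drawn below from the trxRNAi DSS libraries therefore rests on their label.

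The annotated genes of the set lay on 5 chromosome arms (Ensembl annotation of the BDGP6 assembly, which has dm6 coordinates). lcs lay at chrX:21396727-21397316 and whe at chrX:21402339-21402772, both on the minus strand with a gap of 5022 bases between them. CG16826 was at chr2L:13347773-13349020 and CG13947 at chr2L:779173-779655, both on the plus strand. CG45080 was at chr3R:13318991-13319270 and CG33109 at chr3R:14220560-14221584, both on the minus strand. CG34212 was at chr2R:6049874-6050286 and CG43680 at chr3L:15052998-15053351, both on the minus strand. Of all pairs of the set only lcs and whe were neighbours. CG33109 lay 41773 bases from trx on the same chromosome arm. CG43680 lay within an intron of Sytbeta on the same strand, so reads from unspliced Sytbeta transcripts in that intron cannot be told from reads of CG43680.

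The 8 genes share compact structures that played no part in their choice. Of them, 7 had a single exon and CG34212 had 2, whereas 8.56% of tested protein-coding genes had a single exon. Encoded proteins were shorter than 150 amino acids for 6 of 8, against 9.29% of tested protein-coding genes. The lengths were 145 residues for lcs, 85 for whe, 48 for CG34212, 55 for CG45080, 119 for CG13947 and 49 for CG43680. CG16826 encoded 341 residues and CG33109 296, against a median of 448 over the tested protein-coding genes. Transcripts ran from 280 bases for CG45080 to 1248 bases for CG16826, and the median of tested protein-coding genes was 2054. No test was made of these shares, since they compare a chosen set with all genes.

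The order of groups was nearly the same in every gene of the set: highest in control DSS, next in trxRNAi sucrose, far lower in control sucrose and lowest in trxRNAi DSS. Feeding DSS thus went with a high level in the control and with a low level in the trxRNAi libraries. In each of the 4 comparisons between groups that differ in 1 factor, all 8 genes had no overlap between the libraries. This is what the genes were chosen for, and the share of all tested genes without such overlap is not given here. The limma calls that follow are another measure than overlap. Over all tested genes, limma called 4.68% between genotypes under sucrose, 9.44% between genotypes under DSS, 3.08% between feeds in the control and 3.55% between feeds in trxRNAi.

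**Figure D1:**
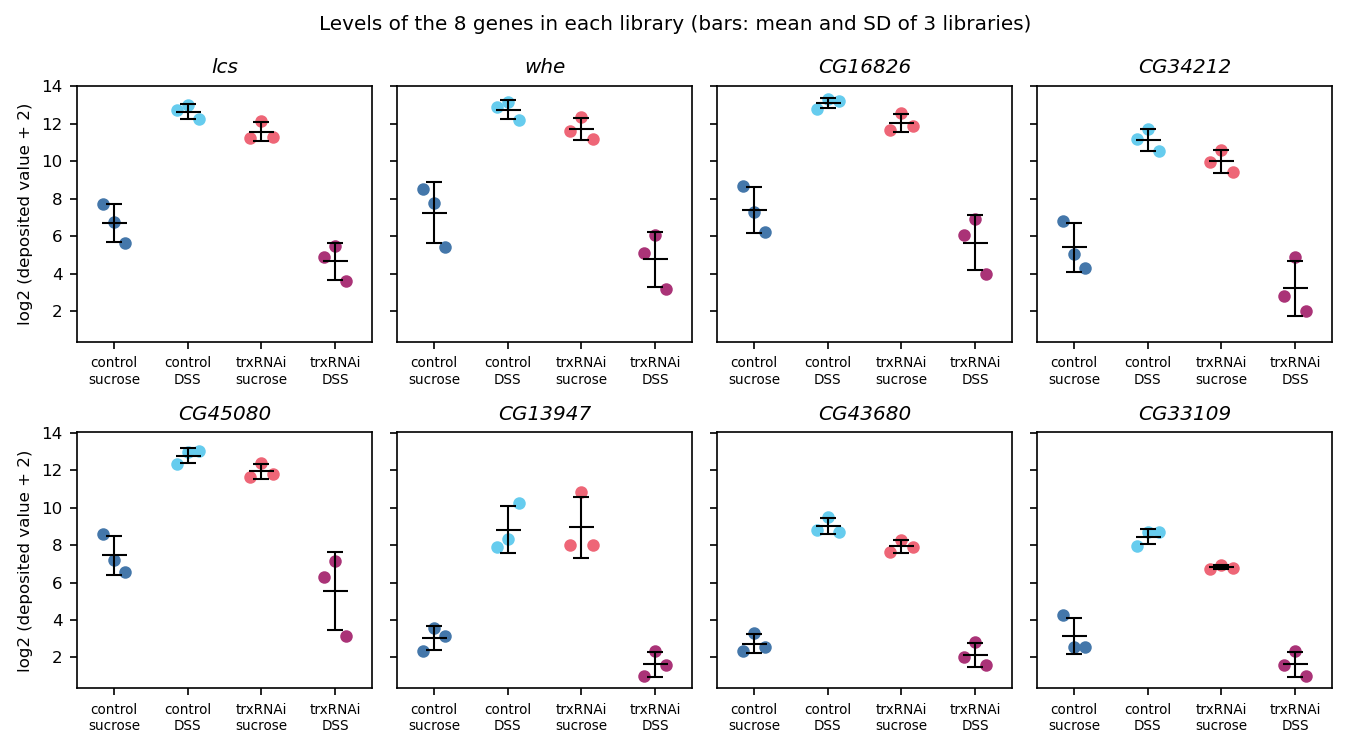
Each panel plots log2 (deposited value + 2) of 1 gene, with a point per library and the mean and SD of the 3 libraries of each group. In all 8 panels the control DSS and trxRNAi sucrose libraries lie above all control sucrose and trxRNAi DSS libraries.

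lcs had levels of 206, 107 and 48 in the control sucrose libraries, 6808, 8130 and 4843 in control DSS, 2427, 4594 and 2535 in trxRNAi sucrose and 27, 43 and 10 in trxRNAi DSS. No group overlapped with another. Its group means were 120.3 ± 79.8, 6594 ± 1654, 3185 ± 1221 and 26.7 ± 16.5 in the same order (SD, n = 3). The mean of the highest group was 247.3 times that of the lowest. On the log2 scale trxRNAi was above control by 4.87 ± 0.60 (SE) under sucrose, and the difference under DSS was -8.01 ± 0.60.

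whe, the neighbour of lcs, had levels of 370, 218 and 41 in control sucrose, 7690, 9202 and 4743 in control DSS, 3134, 5301 and 2339 in trxRNAi sucrose and 32, 64 and 7 in trxRNAi DSS. The 2 high groups overlapped, as did the 2 low groups, and high and low groups were far apart. Its log2 difference between genotypes was 4.48 ± 0.93 under sucrose and -8.00 ± 0.93 under DSS. DSS against sucrose gave 5.51 ± 0.93 in the control and -6.96 ± 0.93 in trxRNAi.

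CG16826, the gene with the longest protein of the set, was at 410, 153 and 73 in control sucrose, 7054, 10310 and 9505 in control DSS, 3288, 6061 and 3795 in trxRNAi sucrose and 65, 117 and 14 in trxRNAi DSS. The lowest control sucrose library, at 73, was below the highest trxRNAi DSS library, at 117. For CG16826 the log2 difference between genotypes was 4.65 ± 0.80 under sucrose and -7.46 ± 0.80 under DSS. CG45080, on another chromosome, ran close to it with 380, 148 and 92 in control sucrose, 5213, 8096 and 8385 in control DSS, 3251, 5365 and 3514 in trxRNAi sucrose and 76, 138 and 7 in trxRNAi DSS. Its 2 high groups overlapped, since the lowest control DSS library was below the highest trxRNAi sucrose library. The log2 difference of CG45080 was 4.49 ± 0.96 under sucrose and -7.26 ± 0.96 under DSS.

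CG34212, whose protein of 48 residues is the shortest of the set, was at 112, 31 and 18 in control sucrose, 2327, 3321 and 1474 in control DSS, 981, 1560 and 683 in trxRNAi sucrose and 5, 27 and 2 in trxRNAi DSS. Neighbouring groups overlapped at the top and at the bottom of its order. Its log2 difference between genotypes was 4.59 ± 0.84 under sucrose and -7.92 ± 0.84 under DSS.

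The other members had lower levels. CG43680 was at 3, 8 and 4 in control sucrose, 455, 731 and 421 in control DSS, 194, 306 and 240 in trxRNAi sucrose and 2, 5 and 1 in trxRNAi DSS. Its log2 differences had the smallest SE of the set: 5.19 ± 0.37 between genotypes under sucrose and -6.90 ± 0.37 under DSS. CG33109 was at 17, 4 and 4 in control sucrose, 250, 415 and 410 in control DSS, 105, 121 and 109 in trxRNAi sucrose and 1, 3 and 0 in trxRNAi DSS. No group of CG33109 overlapped with another, and its log2 difference was 3.69 ± 0.45 under sucrose and -6.82 ± 0.45 under DSS.

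CG13947 departed from the others in its spread. Its levels were 3, 10 and 7 in control sucrose, 236, 318 and 1230 in control DSS, 259, 1813 and 257 in trxRNAi sucrose and 0, 3 and 1 in trxRNAi DSS. A single library of each high group stood above the other two of that group. The remaining libraries of both high groups were also above both low groups. The mean of CG13947 was higher in trxRNAi sucrose, at 776.3 ± 897.8, than in control DSS, at 594.7 ± 551.7 (SD, n = 3), and these groups overlapped. Its log2 difference between genotypes was 5.93 ± 0.84 under sucrose and -7.19 ± 0.84 under DSS. In the low groups its values and those of CG43680 and CG33109 were near the pseudocount of 2, so the log2 (value + 2) scale understates their differences.

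The step between the high and the low groups was free of overlap in 8 of 8 genes. The step from control DSS to trxRNAi sucrose was free of overlap in 4 of 8, namely lcs, CG16826, CG43680 and CG33109. For those genes the control DSS mean was 2.07, 2.04, 2.17 and 3.21 times the trxRNAi sucrose mean, in that order. The step from control sucrose to trxRNAi DSS was free of overlap only in lcs and CG33109, 2 of 8. Both gaps were narrow: the nearest values were 48 and 43 for lcs, and 4 and 3 for CG33109. The order within the high pair was therefore not separated by the libraries in 4 of the 8 genes, and that within the low pair was not in 6. Shares of all tested genes free of overlap at these steps are not given here, so the counts only describe the set.

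The effect of feed had opposite directions in the 2 genotypes. In the control, DSS minus sucrose was between 5.32 for CG33109 and 6.28 for CG43680 on the log2 (value + 2) scale, with 5.95 for lcs. In trxRNAi it was between -5.19 for CG33109 and -7.32 for CG13947, with -6.93 for lcs. Comparisons that share a group share its libraries, so these values are set side by side and no likeness between them is read.

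Ranks by value among the tested genes place the members. The 5 genes with the highest levels had a median percentile of at least 92.0 in control DSS and in trxRNAi sucrose, while CG13947, CG43680 and CG33109 lay between 79.8 and 84.7 in control DSS and between 56.5 and 75.9 in trxRNAi sucrose. By its median rank within a group, lcs was 3633rd of 8399 tested genes in control sucrose, 152nd in control DSS, 284th in trxRNAi sucrose and 6174th in trxRNAi DSS. CG16826 reached median rank 132 in control DSS and CG45080 reached 147. CG43680 and CG33109 were both at median rank 8016 in control sucrose and at 1281 and 1488 in control DSS. These ranks compare values that are not divided by length, which matters less for reads from transcript ends than for reads along whole transcripts. Together the 8 genes made up 0.598 ± 0.0786% of all values in control DSS and 0.295 ± 0.101% in trxRNAi sucrose (SD, n = 3). Their share was 0.0134 ± 0.0103% in control sucrose and 0.00352 ± 0.00301% in trxRNAi DSS.

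Between replicate libraries lcs, whe, CG16826, CG34212, CG45080 and CG33109 varied together on the log2 (value + 2) scale. On that scale CG43680 did so less, with values near the floor in the low groups, and CG13947 did not. The trxRNAi sucrose replicate 2 library was the highest of its group for 8 of 8 genes, and so was trxRNAi DSS replicate 2. Control sucrose replicate 1 was the highest for 6 of 8, and control DSS replicate 2 was the highest for 6 of 8. The lowest library was trxRNAi DSS replicate 3 for 7 of 8. Over all 12 libraries the median Pearson r over the 28 pairs of genes was 0.98, which mostly restates the group pattern that chose them. On deviations from the group means the median r was 0.73, between 0.05 and 0.98. The 15 pairs among lcs, whe, CG16826, CG34212, CG45080 and CG33109 had a median of 0.87, with 0.98 for lcs and whe and 0.97 for CG16826 and CG45080. The 7 pairs with CG13947 had a median of 0.07, the lowest of the set. The 6 remaining pairs with CG43680 had a median of 0.46. CG43680, CG13947 and CG33109 were near the pseudocount in the low groups, where a few units make a large deviation. In control DSS CG43680 deviated by -0.19, 0.49 and -0.3, and lcs by 0.08, 0.33 and -0.41. In trxRNAi sucrose CG43680 deviated by -0.32, 0.33 and -0.01, and lcs by -0.33, 0.59 and -0.26. The part of the floor in these correlations was not tested. All genes in these correlations share the same libraries and scaling factors, and the values are a description over 12 points in 4 groups.

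**Figure D2:**
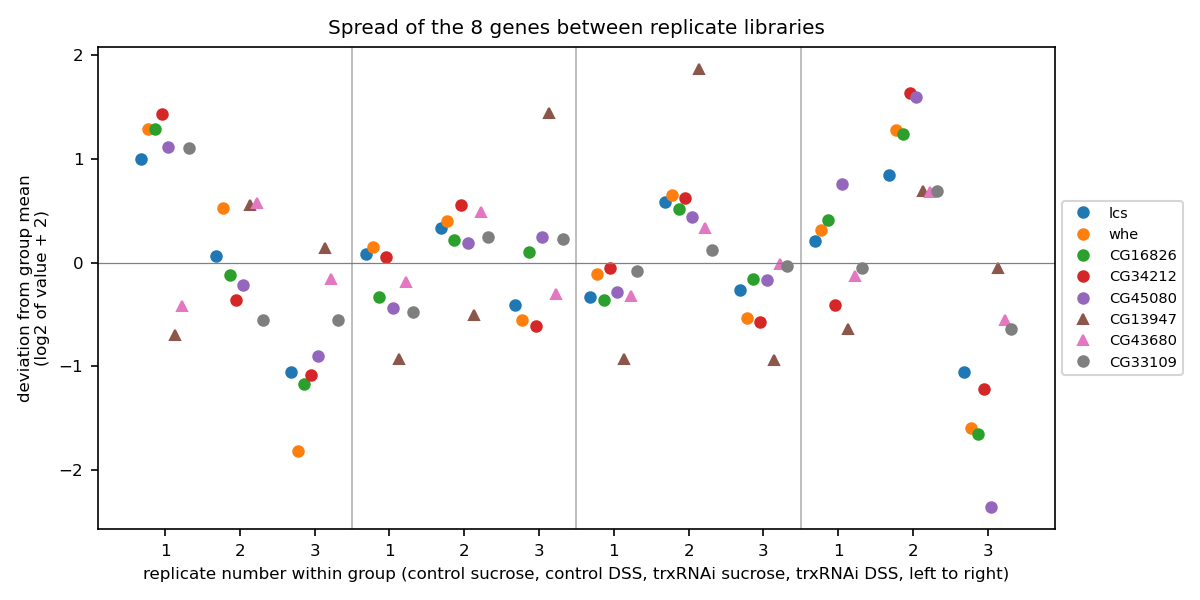
Points give the deviation of each gene from its group mean in log2 (value + 2), by replicate number within the 4 groups, with triangles for CG13947 and CG43680. In trxRNAi DSS the points lie above 0 in replicate 2 and below 0 in replicate 3, while CG13947 stands apart in control DSS replicate 3 and trxRNAi sucrose replicate 2.

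Digestive enzymes moved in part with this replicate pattern. The library with the highest summed level of the 33 listed digestive enzymes was also the one with the highest summed level of the 8 genes in 4 of 4 groups. That sum was 13279, 8771 and 2463 in control sucrose, 5642, 13920 and 3615 in control DSS, 3282, 7408 and 3640 in trxRNAi sucrose and 3919, 4233 and 2896 in trxRNAi DSS. All pairs of groups overlapped in it, so it did not have the group order of the 8 genes. Its lowest library was also that of the summed 8 genes in control sucrose and trxRNAi DSS, but not in control DSS or trxRNAi sucrose. The highest library was also shared in 3 of 4 groups by the lysozymes, in 2 by the progenitor markers and in 1 each by the enterocyte and the enteroendocrine markers. The part of any of these in the levels of the 8 genes was not tested.

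Ratios between members show which of them kept step. The level of whe over that of lcs had a median of 1.14 and ran from 0.7 to 2.04 over the 12 libraries, while lcs itself ran from 10 to 8130. Replicate 3 had the lowest whe over lcs ratio in each of the 4 groups, at 0.854, 0.979, 0.923 and 0.7. The level of CG45080 over that of CG16826 had a median of 0.926 and ran from 0.5 to 1.26. CG43680 over lcs had a median of 0.0816 and a range of 0.0146 to 0.116. CG13947 over lcs had a median of 0.0967 and ran from 0, in a library with 0 for CG13947 and 27 for lcs, to 0.395.

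Genes next to the members were chosen by position alone, so they could be tested. Within 10 kb of the 8 genes the annotation held 39 other genes, of which 11 were tested and 28 did not pass the filter, with a highest value of 18 among the latter. EAChm, near CG43680, passed the filter only through control DSS, where it was high, so it carries no test and is left out of the counts. Of the other 10, 2 were higher and 0 lower in trxRNAi than in control under sucrose, where 2.36% and 2.32% of all tested genes were called higher and lower. Under DSS 0 were higher and 4 lower, where 3.82% and 5.62% of all tested genes were called. For DSS against sucrose in the control 3 were higher and 0 lower, where 1.73% and 1.36% of all tested genes were called higher and lower. For DSS against sucrose in trxRNAi 0 were higher and 3 lower, where 0.964% and 2.58% were called. CG44142 and CG34211 are among the calls of each comparison. Both passed the filter only through control DSS and trxRNAi sucrose, where they were high, so their calls were favoured by the filter and the counts are a description.

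CG44142 lies 5802 bases from CG45080 on the same strand. Its levels were 15, 1 and 1 in control sucrose, 177, 266 and 190 in control DSS, 84, 185 and 69 in trxRNAi sucrose and 1, 3 and 0 in trxRNAi DSS. It had the group order of the set, and its high groups did not overlap with its low groups. The log2 difference of CG44142 between genotypes was 4.29 ± 0.60 under sucrose and -6.08 ± 0.60 under DSS (SE), given as a description. CG34211 lies 2481 bases from CG34212 on the opposite strand, with levels of 5, 2 and 0 in control sucrose, 63, 40 and 44 in control DSS, 93, 83 and 59 in trxRNAi sucrose and 1, 7 and 4 in trxRNAi DSS. CG34211 was higher in trxRNAi under sucrose by 4.37 ± 0.51 and lower by 3.20 ± 0.51 under DSS (SE), also as a description.

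Around CG43680, 2 tested neighbours were lower in trxRNAi than in control under DSS. CG43679, on the same strand, was at 103, 178 and 55 in control DSS and at 7, 7 and 12 in trxRNAi DSS, a fall of 3.30 ± 0.50 on the log2 scale (limma, adjusted p = 0.000434). Sytbeta, a synaptotagmin gene and the host of CG43680, was at 59, 48 and 27 in control DSS and at 11, 5 and 11 in trxRNAi DSS, a difference of -2.07 ± 0.43 (adjusted p = 0.00483). EAChm, named as an enhancer of the acetyltransferase Chameau, was at 16, 15 and 10 in control DSS and listed at 0 in all trxRNAi DSS libraries. Neither CG43679 nor Sytbeta was called between genotypes under sucrose, where CG43679 had a log2 difference of 0.96 (adjusted p = 0.335) and Sytbeta one of -1.15 (adjusted p = 0.147).

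The feed calls of CG43679 were less stable. CG43679 rose by 2.03 with DSS in the control (limma, adjusted p = 0.0368), and the adjusted p was 0.0501 to 0.167 without any one of control sucrose 2 or 3, control DSS 1 or 2, trxRNAi sucrose 1 or 2, or trxRNAi DSS 1 or 2. In trxRNAi it fell by 2.23 (adjusted p = 0.0176), with 0.0763 to 0.102 without trxRNAi sucrose 1 or 2 or trxRNAi DSS 1 or 2.

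The remaining neighbours did not pass the test. The tested neighbours mst and Ddx56 near lcs, Tbce and CG14591 near CG34212, CG32473 near CG45080 and Pkg21D near CG13947 were not called in any of the 4 comparisons. The 6 genes around CG33109 reached at most 11, and CG9395, the single neighbour of CG16826, reached at most 4.

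**Figure D3:**
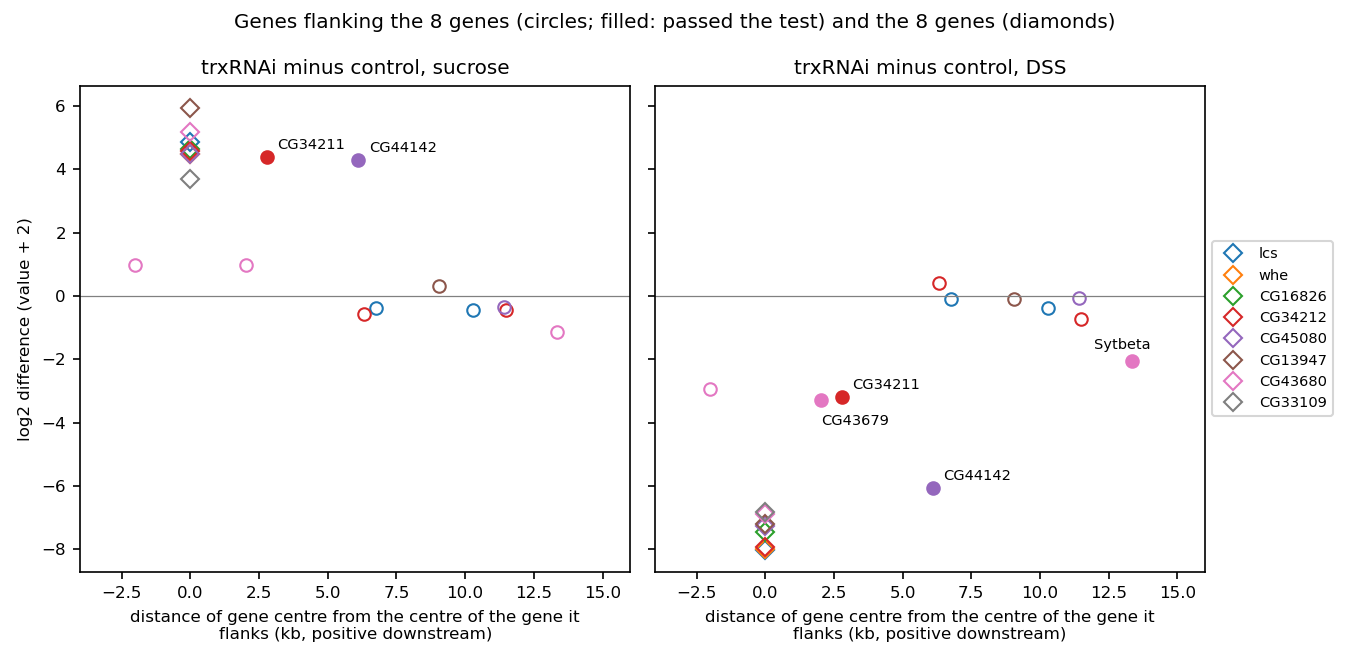
The log2 difference of each tested flanking gene between genotypes is plotted against the distance of its centre from the centre of the member it flanks, in kb, for sucrose and DSS, with filled circles for genes past the test, an open circle also for EAChm, which carries no test, and diamonds for the members. CG44142 and CG34211, which passed the filter only through the groups where they were high, are the filled circles above 0 under sucrose, and 4 filled circles lie below 0 under DSS.

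Outside the set, the 10 genes most like it were ranked by Pearson r over the 12 libraries with the mean standardised profile of the 8 genes. They were CG44142 (r = 0.983), cv-2 (0.973), Syt4 (0.97), LysB (0.968), Idgf3 (0.962), Ag5r (0.961), MFS3 (0.961), Dscam4 (0.957), LysD (0.956) and Ih (0.955). They were chosen for this pattern, so their group differences carry no test here unless a list or position named them too. Syt4, a vesicle protein gene on the enteroendocrine list, was at 7, 6 and 2 in control sucrose, 75, 68 and 103 in control DSS, 104, 115 and 106 in trxRNAi sucrose and 3, 2 and 1 in trxRNAi DSS. Idgf3, of the imaginal disc growth factors, was at 1, 4 and 0, then 88, 142 and 100, then 36, 44 and 44, then 0, 1 and 1 in the same order of groups. A high r did not need a large swing: cv-2, which encodes a secreted protein that binds bone morphogenetic proteins, had group means of 332.7, 634.3, 655.7 and 295.0.

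The 5 genes with the most opposite profile were asRNA:CR45822 (r = -0.961), pyd3 (-0.952), Sp7 (-0.947), Klp10A (-0.942) and CG10184 (-0.939). pyd3, which encodes a beta-alanine synthase, was at 128, 185 and 231 in control sucrose, 15, 5 and 5 in control DSS, 17, 7 and 6 in trxRNAi sucrose and 141, 173 and 187 in trxRNAi DSS. Sp7, a serine protease gene, was at 41, 58 and 60, then 5, 0 and 6, then 6, 8 and 2, then 95, 92 and 99. Both were low where the 8 genes were high. asRNA:CR45822 is an antisense RNA, and since the use of strand is not given, its reads cannot be told from those of a gene on the other strand.

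**Figure D4:**
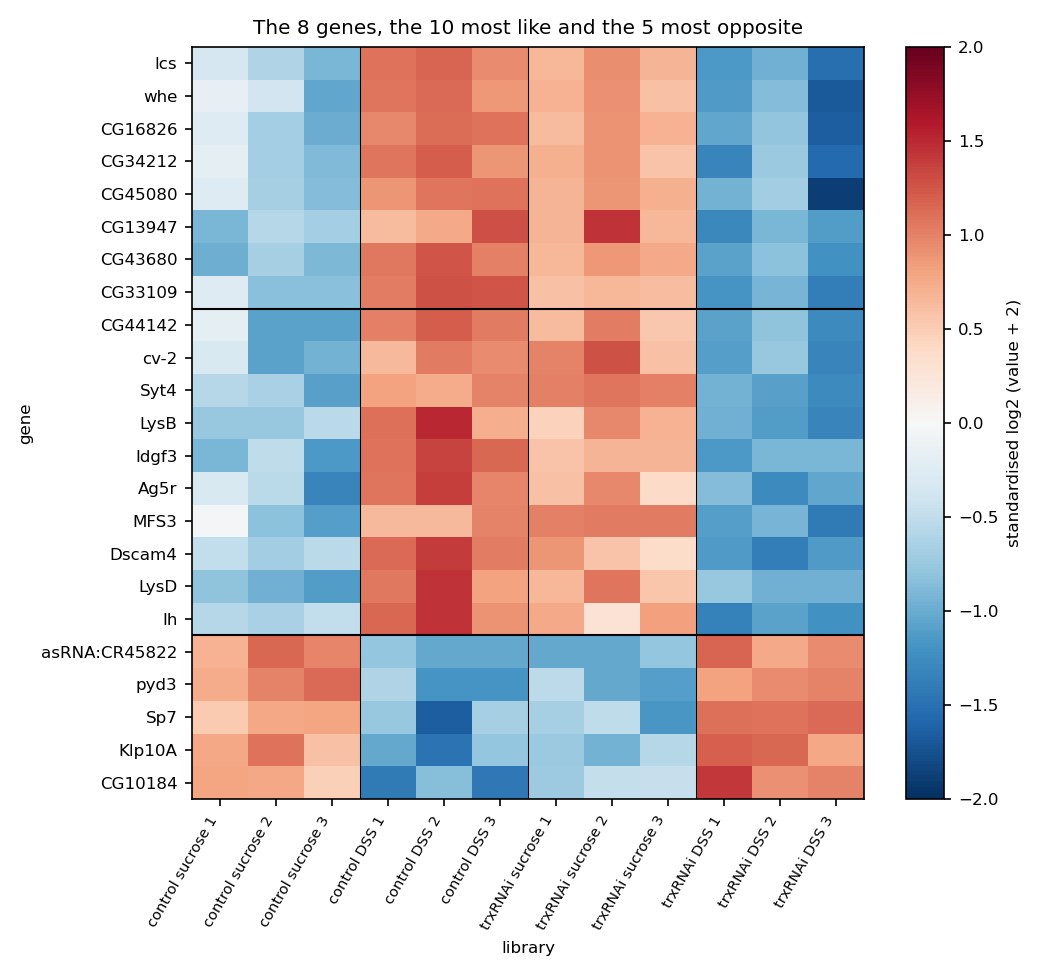
Colours give log2 (value + 2) of each gene standardised over the 12 libraries, with the 8 genes at the top, the 10 most like them in the middle and the 5 most opposite at the bottom. The upper blocks are red in control DSS and trxRNAi sucrose and blue in the other groups, and the lowest block is the reverse.

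Among the lists of gut genes, the lysozymes held LysB, LysD and LysE, whose high groups were those of the set. Lysozymes cleave bacterial cell walls, and in flies many serve digestion in the midgut. Of 7 listed lysozyme genes 4 were tested, and 3 of the 4 rose in trxRNAi under sucrose and fell under DSS, with the same 3 higher with DSS in the control and lower with DSS in trxRNAi. Over all tested genes 2.36% were called higher in trxRNAi under sucrose and 5.62% lower under DSS. Between feeds, 1.73% were called higher with DSS in the control and 2.58% lower with DSS in trxRNAi. LysD was at 8, 5 and 3 in control sucrose, 544, 1284 and 321 in control DSS, 233, 561 and 187 in trxRNAi sucrose and 9, 5 and 5 in trxRNAi DSS. For LysD the log2 difference between genotypes was 5.37 ± 0.49 under sucrose and -6.23 ± 0.49 under DSS (SE). LysP, the other tested lysozyme gene, was not called in any of the 4 comparisons (limma, adjusted p 0.324 to 0.882). LysB, LysD and LysE passed the filter only through control DSS and trxRNAi sucrose, where they were high. LysB and LysD were also chosen above for their likeness to the set. These calls are therefore a description and no support for that likeness. LysB, LysD and LysE are close copies, so the split of reads between them is uncertain.

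The lists that follow did not share the pattern of the 8 genes as a whole. Of 28 tested digestive enzymes, 2 were higher and 1 lower in trxRNAi under sucrose, and 1 was higher and 1 lower under DSS, with list medians of -0.83 and -0.84 against 0.01 and -0.01 over all tested genes. All tested genes had 2.36% called higher and 2.32% lower under sucrose, and 3.82% and 5.62% under DSS. Apart from Mal-B1, each of these calls ended without single libraries: the rise of Jon25Bii under sucrose without control sucrose 2 or 3 or trxRNAi sucrose 1 or 2 (limma, adjusted p 0.0578 to 0.0835), the fall of Mal-A3 without control sucrose 1 or 2 or any trxRNAi sucrose library (0.0721 to 0.0973), and the rise of Amy-d under DSS without control DSS 1 or 2 or trxRNAi DSS 1 or 2 (0.0582 to 0.108). The maltase gene Mal-B1 was a digestive enzyme whose group means had the order of the set, at 23, 4 and 1 in control sucrose, 71, 136 and 28 in control DSS, 88, 72 and 61 in trxRNAi sucrose and 0, 0 and 1 in trxRNAi DSS. Mal-B1 was higher by 3.29 ± 0.66 in trxRNAi under sucrose and lower by 4.87 ± 0.66 under DSS (SE). Mal-B1 and Jon25Bii passed the filter only through control DSS and trxRNAi sucrose, where they were high, so their calls were favoured by the filter. Of 11 tested enterocyte markers, 0 were higher and 1 lower in trxRNAi under sucrose, and the same numbers were found under DSS, where the shares over all tested genes were those just given. Under sucrose the call was Npc2d, a sterol transport gene (limma, adjusted p = 0.0386), which reached 0.051 to 0.143 without control sucrose 1 or 2, any trxRNAi sucrose library or trxRNAi DSS 3. Npc2d was at 36, 24 and 7 in control sucrose and 2, 1 and 2 in trxRNAi sucrose. It passed the filter only through control libraries, where it was high, so its call was favoured by the filter. Under DSS the call was Ssk, a septate junction gene (adjusted p = 0.0427), which reached 0.0586 to 0.126 without control sucrose 1, control DSS 1, trxRNAi sucrose 1 or 2 or any trxRNAi DSS library. Ssk was at 167, 81 and 185 in control sucrose, 354, 199 and 1000 in control DSS, 260, 252 and 454 in trxRNAi sucrose and 115, 103 and 91 in trxRNAi DSS. Its group means had the order of the set, its libraries did not overlap in any of the 4 comparisons, and its log2 difference of 1.18 under sucrose was not called (adjusted p = 0.274).

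Of 13 tested enteroendocrine markers, 2 were higher and 8 lower in trxRNAi under sucrose, and 0 were higher and 11 lower under DSS. Over all tested genes the shares higher and lower were 2.36% and 2.32% under sucrose and 3.82% and 5.62% under DSS. Between feeds, 2 were higher and 1 lower with DSS in the control, and 0 were higher and 6 lower with DSS in trxRNAi, against 1.73% and 1.36% and 0.964% and 2.58% of all tested genes. The markers higher under sucrose were Syt4, whose levels are given above, and pros, a transcription factor gene of endocrine fate. Syt4 passed the filter only through control DSS and trxRNAi sucrose, where it was high, so its calls were favoured by the filter. pros was at 508, 402 and 300 in control sucrose, 891, 553 and 1870 in control DSS, 1021, 853 and 1256 in trxRNAi sucrose and 94, 106 and 104 in trxRNAi DSS, the high and low groups of the set without overlap between them. Its log2 difference between genotypes under sucrose was 1.38 ± 0.35 (limma, adjusted p = 0.0385), which reached 0.0566 to 0.13 without control sucrose 2 or 3, control DSS 1 or any trxRNAi library, and under DSS it was -3.24 ± 0.35 (adjusted p = 6.37e-05). The hormone gene CCHa2 also had those groups high, at 186, 163 and 145, then 1064, 581 and 4385, then 804, 779 and 1960, then 55, 74 and 82 in the same order. For CCHa2 the log2 difference was 2.69 ± 0.67 under sucrose (adjusted p = 0.059) and -4.29 ± 0.67 under DSS (adjusted p = 0.00428). The peptide hormone gene AstC was lower in trxRNAi by a log2 difference of -3.31 ± 0.21 under sucrose (limma, adjusted p = 5.89e-08), where the values of lcs were higher. The part of endocrine RNA in the levels of the 8 genes was not tested.

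Markers of other cells moved in part with the set. Of 9 tested progenitor markers, 1 was higher and 0 lower in trxRNAi under sucrose, and 0 were higher and 3 lower under DSS, against 2.36% and 2.32% and 3.82% and 5.62% of all tested genes. spdo, a regulator of Notch signalling and a progenitor marker, was at 13, 39 and 39 in control sucrose, 77, 76 and 123 in control DSS, 146, 128 and 139 in trxRNAi sucrose and 33, 20 and 32 in trxRNAi DSS. Its high groups were the high groups of the set, with log2 differences between genotypes of 2.25 ± 0.36 under sucrose (limma, adjusted p = 0.00108) and -1.63 ± 0.36 under DSS (adjusted p = 0.00703). Of 5 tested neuronal markers, which endocrine cells also express in part, 1 was higher and 0 lower in trxRNAi under sucrose and 0 were higher and 4 lower under DSS, where the same shares apply. The one higher under sucrose was fne, an RNA-binding protein gene, at 10, 19 and 24, then 62, 60 and 92, then 50, 40 and 63, then 12, 15 and 12 in the order of groups above. Its adjusted p of 0.0209 reached 0.0718 to 0.0972 without control sucrose 1 or trxRNAi sucrose 1 or 3. Of 2 tested hemocyte markers 1 was called: crq, a scavenger receptor gene, ran against the set, with -0.78 ± 0.15 under sucrose (adjusted p = 0.00595) and 1.04 ± 0.15 under DSS (limma, adjusted p = 0.000241). The other, Sr-CI, had 0.49 ± 0.56 under sucrose (adjusted p = 0.717) and -1.05 ± 0.56 under DSS (adjusted p = 0.3). No marker of visceral muscle (5 tested), trachea (2) or fat body and ovary (2) was called in any of the 4 comparisons, and no Malpighian tubule marker passed the filter. Over all tested genes 4.68% and 9.44% were called between genotypes under sucrose and under DSS. Between feeds 3.08% were called in the control and 3.55% in trxRNAi. Counts over so few hemocyte, muscle, tracheal, fat body and ovary markers are a description only. The part of these cells in the levels of the 8 genes was not tested.

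Regional transcription factors held genes that ran against the set. Of 7 tested, 0 were higher and 2 lower in trxRNAi under sucrose, and 2 were higher and 1 lower under DSS, against 2.36% and 2.32% and 3.82% and 5.62% of all tested genes. The 1 lower under DSS was hth, whose adjusted p of 0.0195 reached 0.0625 to 0.086 without control DSS 3 or trxRNAi DSS 2 or 3. exex, a homeodomain factor gene, was at 142, 205 and 176 in control sucrose, 34, 39 and 33 in control DSS, 55, 49 and 28 in trxRNAi sucrose and 76, 195 and 161 in trxRNAi DSS. It fell by 1.98 ± 0.32 in trxRNAi under sucrose (limma, adjusted p = 0.00136) and rose by 1.87 under DSS (adjusted p = 0.00113). Ptx1, the factor named in the series title, was at 218, 176 and 162 in control sucrose, 78, 50 and 33 in control DSS, 13, 15 and 7 in trxRNAi sucrose and 77, 115 and 140 in trxRNAi DSS. Ptx1 was thus highest in control sucrose, where the 8 genes were low, and lowest in trxRNAi sucrose, where they were high. Its log2 difference between genotypes was -3.82 ± 0.33 under sucrose (limma, adjusted p = 2.71e-06) and 1.06 under DSS (adjusted p = 0.0567). The part of gut region in the levels of the 8 genes was not tested.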

How the data were processed

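RNA of sorted midgut cells was measured in 12 libraries of 4 groups, taken from the sample titles. Each deposited table holds 1 whole-number value per gene, treated as a score: the values show that the authors multiplied read counts by one factor per library and rounded. Per the submitters' processing notes the build was dm6, and the tools listed, with neither version nor role, were HISAT2, Bowtie2, bcl2fastq, edgeR, limma, DESeq and DESeq2. Which counter and annotation were used, and whether strand was, is not given in the sources used here. No count test was run, since the values are scaled.

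The log2 (value + 2) scale understates changes where values are low. The 8399 genes with at least 10 in at least 3 libraries were fitted with limma 3.58.1 (statmod 1.5.0, R 4.3.3), with one mean per group over all 12 libraries, an intensity trend and robust variance. Benjamini-Hochberg adjustment was made over all of them, and an adjusted p under 0.05 was a call. In simulated data the fit recovered 38 to 49% of 100 genes changed 2-fold and 81 to 92% of 100 changed 4-fold, and called 4 to 7 other genes. The changed genes were drawn above a lower bound on their mean level, and the simulated spread was capped. Genes of low level or wide spread may be recovered less often. A gene that was not called may therefore have changed. Of 17617 identifiers, 17520 matched a symbol in the Ensembl annotation and 97 did not. The 8 genes and all lists were chosen with earlier results of these data known. Named genes were the 8, trx and Ptx1, the 10 most and 5 least alike by Pearson r, called genes within 10 kb, and the genes of each list with the smallest p, at most 4, of which not all are named. Alternatives were other scalings, pseudocounts of 1 and 5, no filter, a replicate block, leaving out each library and fitting only the 6 libraries compared. A planned description of promoters and proteins was left out, as no sequence table was used here. The number of reads is unknown, so no counting interval is given.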

Additional observations from a re-analysis of the deposited data

Results flagged for a closer look

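For 26 genes of those that the naming rule took, every trxRNAi library was above every control library under sucrose and below every control library under DSS, and for 8 more the reverse held. Each was marked because all libraries moved one way under one feed and the opposite way under the other. The 8 genes of the set, those most like them and those most opposite were chosen by their pattern over these libraries. Neither the number of genes that the naming rule took nor the share of all tested genes with this pattern is given here. The counts therefore only describe the named genes and largely restate how they were chosen. The difference between the feeds was not tested for any of them. It is given as the genotype difference under DSS less that under sucrose, on the log2 (value + 2) scale.

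Within the set this difference was -12.88 for lcs, -12.47 for whe, -12.11 for CG16826, -12.51 for CG34212 and -11.75 for CG45080. It was -13.12 for CG13947, -12.09 for CG43680 and -10.51 for CG33109. For the flanking genes it was -10.36 for CG44142 and -7.57 for CG34211. Among the genes most like the set it was -2.08 for cv-2, -8.46 for Syt4, -10.08 for LysB, -9.10 for Idgf3 and -7.92 for Ag5r. It was -3.42 for MFS3, -3.08 for Dscam4, -11.60 for LysD and -3.48 for Ih. The genes with the opposite profile had 8.77 for asRNA:CR45822, 8.16 for pyd3, 7.32 for Sp7, 2.12 for Klp10A and 2.47 for CG10184. Among list genes it was -3.88 for spdo, -4.62 for pros, -6.98 for CCHa2, -3.17 for Ssk, -3.75 for fne, -8.37 for LysE and -8.16 for Mal-B1. With the reverse direction it was 1.82 for crq, 3.84 for exex and 4.92 for cad.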

How the results depend on the processing

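The 32 log2 differences of the 8 genes kept their direction under all 544 alternatives run. Genes chosen for large swings could not reverse under such changes, so the kept direction is no support. Of the alternatives 8 moved a difference by more than the spread between replicates, all with another pseudocount. With a pseudocount of 5, CG43680 had 4.66, -6.13, 5.74 and -5.05 (genotype under sucrose, genotype under DSS, feed in control, feed in trxRNAi), and CG33109 had -5.83 for genotype under DSS and -4.23 for feed in trxRNAi. With a pseudocount of 1 those 2 values of CG33109 were -7.45 and -5.81. The median r among the 8 genes was 0.98, 0.97 to 0.98 without any one library, and 0.73 on deviations from group means. Over all genes 393, 793, 259 and 298 were called in the 4 comparisons in that order, and fitting only the 6 libraries compared gave 93 for feed in the control. Leaving out 1 library gave 183 to 585, 531 to 934, 133 to 251 and 167 to 385 calls. Calls fell by over 1.5 times without control sucrose 2 (210) or trxRNAi sucrose 1 (189), 2 (183) or 3 (231) for genotype under sucrose. They did so without control sucrose 2 (133) or 3 (135) or control DSS 1 (139) for feed in the control, and without trxRNAi sucrose 1 (167) or 2 (194) or trxRNAi DSS 2 (184) for feed in trxRNAi. Such fits have fewer libraries. List calls ranged over 16 to 28, 27 to 32, 10 to 15 and 13 to 25, the last being lowest without trxRNAi DSS 2. Flanking calls, EAChm included, ranged over 2 to 2, 5 to 5, 2 to 4 and 2 to 3, with 2 for feed in the control without control sucrose 2 or 3 or control DSS 1 or 2. Rescaling to equal totals shifted the median of all genes by 0.09, -0.13, 0.14 and -0.08 and gave 268 higher and 148 lower, 201 and 595, 198 and 66, and 63 and 248 calls, against 198 and 195, 321 and 472, 145 and 114, and 81 and 217. Correlations of same-numbered deviations ran from -0.2 to 0.28 (median 0.07) and those of other pairs from -0.29 to 0.35 (median -0.04). Same-numbered values were 0.08, 0.26 and 0.28 between control sucrose and control DSS, where others ran from -0.24 to 0.01. Between trxRNAi sucrose and trxRNAi DSS they were -0.03, -0.2 and 0.12. Whether replicate numbers pair the libraries is therefore not settled. With the replicate block 458, 865, 299 and 311 genes were called. Values near 0 in the low groups limit how large a difference can be measured.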
